A study of Mus musculus with 16 samples.

Results

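The kidney cortex of mice that had run on a treadmill for 2 weeks (2 wk) was compared with that of mice of the 1 day group (24 h) by RNA sequencing. The members are the 4 libraries titled as 2 wk and the 4 titled as 24 h, 8 of 16 libraries in all, and the 16126 genes of 55414 that had enough counts to be tested. All mice were wild-type C57BL/6J males, and both groups ran for 40 minutes at 70% of capacity under force. The other 8 libraries, 4 sedentary and 4 after 1 week (1 wk), entered the statistical fit and are given for reference. The labels used here do not give ages, the number of runs, how long after running the mice were killed or whether each library is a separate animal. The p-values therefore reflect how much these libraries vary, which may be technical in part. Both groups carry the same unexplained letter in their titles, and library numbers run in group order, so the order of preparation cannot be told apart from the group.

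Cells that run short of amino acids or accumulate misfolded protein slow their translation and raise the transcription factors ATF4 and ATF5, which switch on genes of amino acid synthesis and import; this is the integrated stress response. Misfolded protein in the endoplasmic reticulum or in the cytosol also raises chaperones, through ATF6 and XBP1 or through heat shock factors. In the kidney cortex, filtered salt and water are reclaimed mostly by the proximal tubule and then, under hormonal control, by the distal convoluted tubule and collecting duct. This transport draws largely on mitochondria.

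The 8 libraries held 39766260 to 66852397 counts, the deepest being 2 wk replicate 2. Xist, the RNA of the inactive X chromosome, had 0 counts in each of the 8, and the Y-linked Ddx3y had 485 to 1197, as for males. The 14 proximal tubule markers summed to 19000 to 25200 CPM (normalised counts, with every library scaled to the same size by TMM) and the 8 skeletal muscle markers to 1.74 to 2.59 CPM. In a principal component analysis of the 8 libraries, 24 h replicate 3 stood apart, at 41.5 on the first axis, which held 25.5% of the variance, where the other 7 lay between −26.9 and 10.4. On the second axis, which held 17.3% of the variance, 2 wk replicate 1 lay at 32.5. The other 7 lay between −25.6 and 9.53 there. For many lists the values without 24 h replicate 3 are given with that list. Where none are given, a list's median or count of genes may still have moved.

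Only 2 of 16126 genes passed, 0.0124%, by edgeR's quasi-likelihood test at a Benjamini-Hochberg adjusted p under 0.05. Both genes, Asns and Atf5, belong to the integrated stress response and were lower at 2 wk; 0 genes were higher. DESeq2 called 39 genes, 23 higher and 16 lower. They included 22 of the 23 genes that are described here for their smallest p in edgeR. The other was Jchain, for which DESeq2 gave no adjusted p. At an unadjusted p under 0.05 there were 1549 genes (9.61%), 853 higher (5.29%) and 696 lower (4.32%), and 52.2% of all tested genes had a positive log2 fold change. All 4 libraries of 2 wk lay above all 4 of 24 h for 274 genes (1.7%) and below them for 252 (1.56%). The median log2 fold change (2 wk over 24 h, as throughout) was 0.011 over all tested genes, with quartiles of −0.12 and 0.15, and the median standard error of a gene was 0.14.

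**Figure D1:**
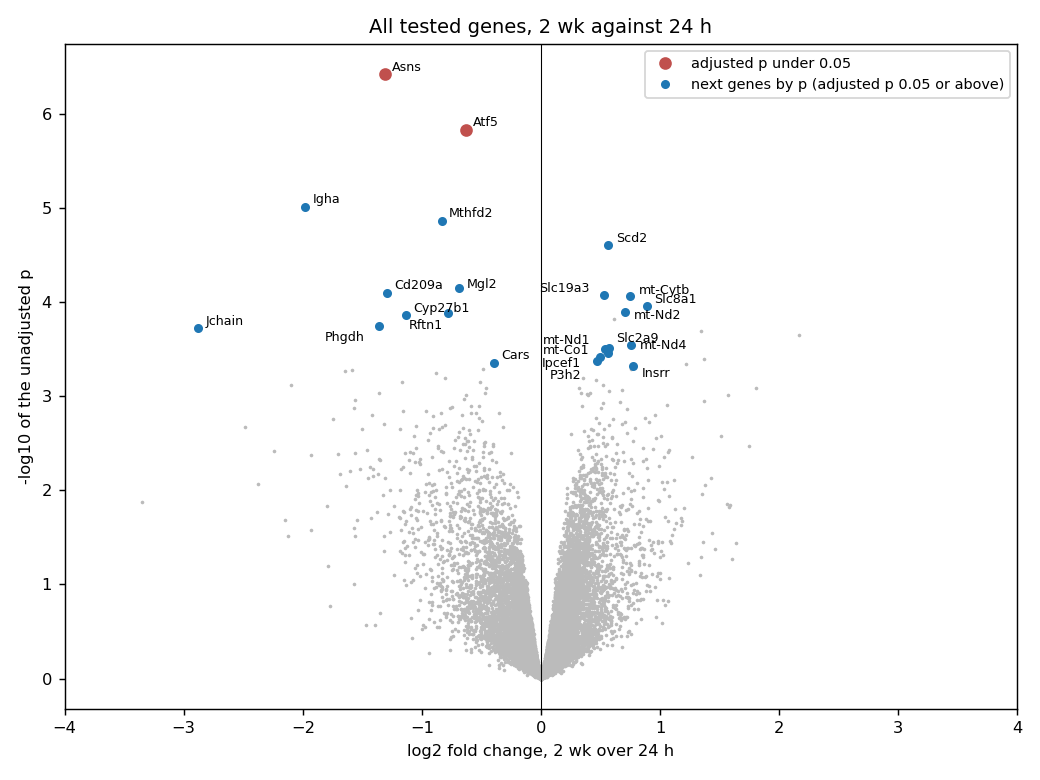
Each point is a tested gene, placed by its log2 fold change at 2 wk over 24 h (x) and −log10 of its unadjusted p from edgeR (y); red points are the 2 genes with adjusted p under 0.05 and blue points 21 of the next genes by p, among those with mean log2 CPM of at least 0 and a full gene symbol. Asns and Atf5 stand at the top left, and the 12 blue genes on the right have log2 fold changes from 0.47 to 0.89. 1 gene, an adipocyte marker with a log2 fold change of 4.27, lies outside the plotted range.

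Asns, asparagine synthetase, makes asparagine from aspartate and glutamine and is a classic target of ATF4 (ENSMUSG00000029752, GRCm38 chromosome 6, 7675169 to 7693254, minus strand). It was at 4.99, 3.79, 3.63 and 4.48 CPM in the 4 libraries of 2 wk and at 10.5, 9.47, 11.7 and 10.2 CPM in those of 24 h. The lowest 24 h library was thus well above the highest 2 wk library. Asns fell by 1.31 ± 0.17 on the log2 scale (SE; edgeR, adjusted p = 0.00616), from 10.5 ± 0.931 to 4.22 ± 0.629 CPM (SD, n = 4), so that 24 h was 2.49-fold higher. Sedentary libraries were at 5.06 ± 0.909 CPM and 1 wk libraries at 6.10 ± 1.59 CPM. Without 2 wk replicate 2 its adjusted p was 0.0544, with a log2 fold change of −1.27.

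Atf5, a transcription factor of the same response (ENSMUSG00000038539, chromosome 7, 44812256 to 44816658, minus strand), was at 21.1, 16.6, 18.7 and 18.5 CPM at 2 wk and at 30.8, 28.3, 27.5 and 29.1 CPM at 24 h. The groups did not overlap, and the 4 libraries of 24 h lay close together. It fell by 0.63 ± 0.09 on the log2 scale (SE; edgeR, adjusted p = 0.0121), against 19.7 ± 1.58 CPM in sedentary and 21.5 ± 1.55 CPM in 1 wk libraries (SD, n = 4). The size of the difference hardly moved when libraries were left out, but the call was lost without 2 wk replicate 2 (adjusted p = 0.0671), 2 wk replicate 4 (0.0845), 24 h replicate 1 (0.0889) or 24 h replicate 4 (0.0575), and in a fit on the 8 libraries alone (0.107).

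The sequences before the start sites of these 2 genes are shown because they are the only genes called. They come from RefSeq (GRCm38.p6), read 5′ to 3′ on the gene's strand. Capitals mark the core of the C/EBP-ATF response element, TGATGNAA, to which ATF4 and its partners bind; it was searched on both strands in the 250 bases before each start.
Asns, chr6:7693225-7693459, minus strand: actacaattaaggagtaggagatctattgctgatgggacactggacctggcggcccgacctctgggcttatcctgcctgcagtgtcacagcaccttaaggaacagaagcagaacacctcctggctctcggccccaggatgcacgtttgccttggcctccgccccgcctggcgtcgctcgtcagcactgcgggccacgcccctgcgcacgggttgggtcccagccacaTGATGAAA
Atf5, chr7:44816659-44816908, minus strand: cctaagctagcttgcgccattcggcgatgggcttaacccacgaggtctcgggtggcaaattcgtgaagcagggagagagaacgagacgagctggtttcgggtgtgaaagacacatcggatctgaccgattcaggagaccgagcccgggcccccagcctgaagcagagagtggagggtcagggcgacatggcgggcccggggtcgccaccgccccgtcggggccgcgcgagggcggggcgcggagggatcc
In Asns the element lies 23 to 16 bases before the RefSeq start. The outermost GENCODE start lies 45 bases upstream of the RefSeq start, so that the element lies downstream of the GENCODE start. Neither of the 2 RefSeq starts of Atf5 has a match. The element was present before 1134 of 32851 RefSeq starts (3.45%) and before those of 7 of the 23 matched genes of the integrated stress response list (Asns, Chac1, Fgf21, Nupr1, Pycr1, Slc7a11 and Vldlr). The pattern had been shortened from TGATGNAAT, which Asns does not match, after the promoters were read. The longer form was present before 268 starts (0.816%) and before those of 3 of the 23 matched genes (Fgf21, Nupr1 and Pycr1). These matches describe letters and were not tested as binding sites.

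Of the 24 listed genes of the integrated stress response and amino acid synthesis, 21 were tested. Those 21 had a median log2 fold change of −0.18, 17 were negative and 2 passed. Of the 21, 6 were lower at an unadjusted p under 0.05, where 4.32% of all tested genes were. Without 24 h replicate 3 the median was −0.080, and 6 were still lower at that threshold. Mthfd2, which makes formyl units for purine synthesis in mitochondria, was at 4.07, 3.26, 2.98 and 3.16 CPM at 2 wk and at 5.70, 4.86, 6.80 and 6.56 CPM at 24 h. These groups did not overlap either, yet the gene missed the threshold at a log2 fold change of −0.83 ± 0.14 (edgeR, adjusted p = 0.0558; 0.562-fold).

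Phgdh, the entry enzyme of serine synthesis, was at 4.19, 9.03, 8.05 and 5.40 CPM at 2 wk and at 18.7, 9.20, 28.8 and 12.3 CPM at 24 h. Its groups nearly touched, at 9.03 against 9.20 CPM, and the log2 fold change was −1.36 ± 0.29 (edgeR, adjusted p = 0.192). The next 2 genes were chosen after their values were seen. Nupr1, a stress-induced chromatin protein, was at 4.71 to 6.36 CPM at 2 wk and 5.90 to 15.5 CPM at 24 h. Atf4 itself, which is controlled largely at translation, was at 83.0 to 90.8 CPM at 2 wk and 79.0 to 125 CPM at 24 h, so that the groups overlapped (−0.21 ± 0.12, edgeR, adjusted p = 0.605).

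The aminoacyl-tRNA synthetases load amino acids onto tRNA, and several are also induced by ATF4. The 20 cytosolic ones had a median log2 fold change of −0.038. Cars, Mars and Yars, 3 of the 20, were lower at an unadjusted p under 0.05, where 4.32% of all tested genes were. Cars, the cysteinyl enzyme, was at 22.8, 22.8, 21.4 and 18.7 CPM at 2 wk and at 25.7, 26.5, 33.3 and 27.4 CPM at 24 h, with no overlap (log2 fold change −0.40 ± 0.09, edgeR, adjusted p = 0.271). Mars, the methionyl enzyme, was also without overlap, at 54.5 to 59.7 CPM against 61.1 to 69.2 CPM. For Yars, the tyrosyl enzyme, the ranges of 45.4 to 57.7 CPM and 54.3 to 68.9 CPM overlapped. Without 24 h replicate 3, 1 synthetase was lower at that threshold.

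**Figure D2:**
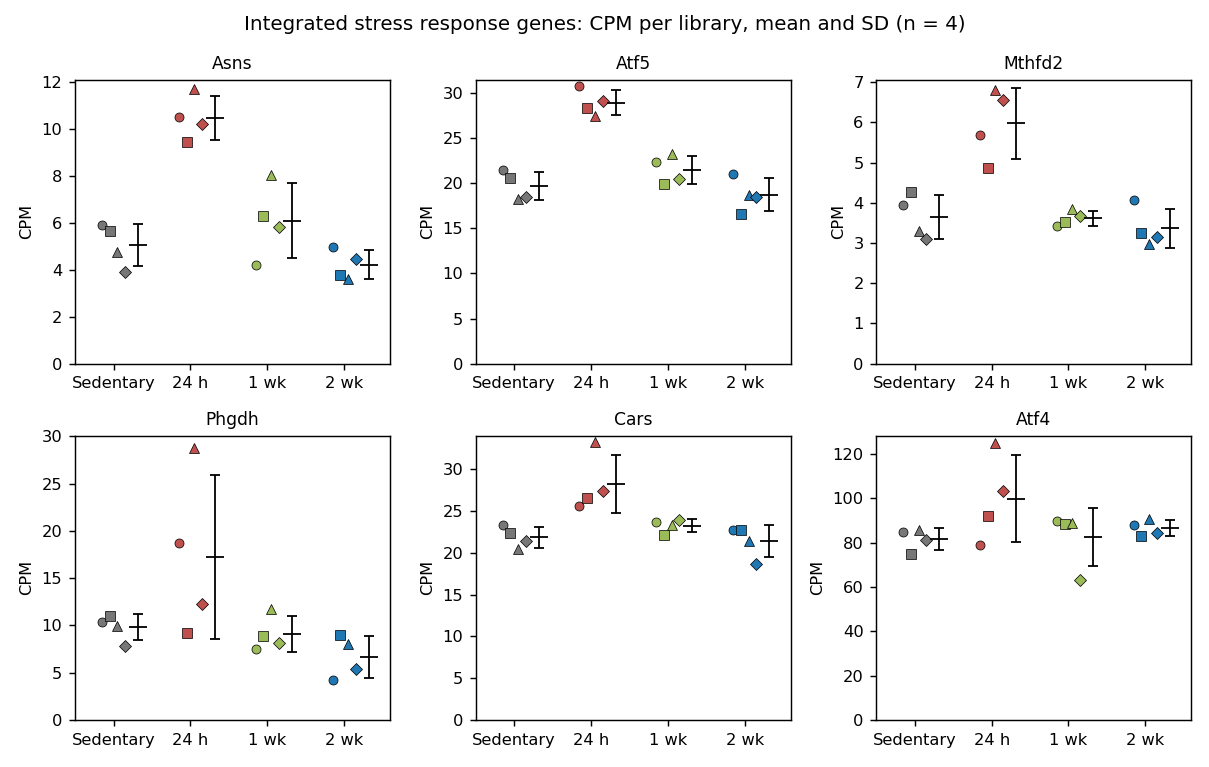
CPM (y) of 6 genes of the integrated stress response and tRNA loading in every library of the 4 groups (x); points are libraries with a symbol for each replicate number, and the bar beside them is the mean with its SD (n = 4). For Asns, Atf5, Mthfd2, Cars and, narrowly, Phgdh all 24 h libraries lie above all 2 wk libraries, whereas for Atf4 the groups overlap.

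Chaperones of the endoplasmic reticulum had mostly lower values at 2 wk, and how many did depended on single libraries. None of the 20 genes passed. Their median log2 fold change was −0.27 and 17 were negative. Of the 20, 6 were lower at an unadjusted p under 0.05, where 4.32% of all tested genes were. Without 24 h replicate 3 the median was −0.11 and 0 were lower at that threshold. Without 2 wk replicate 4 the median was −0.18 and the count again 0, and without 2 wk replicate 2 the count was 1. The list's mean log2 CPM, set against the sedentary mean, was 0.86 in 24 h replicate 3 and 0.18 to 0.285 in the other 24 h libraries, and it was 0.36, 0.039, 0.30 and −0.30 at 2 wk.

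Pdia6, a disulfide isomerase, was at 169 to 286 CPM at 2 wk and at 246 to 341 CPM at 24 h. Its log2 fold change was −0.34 ± 0.13 (edgeR, adjusted p = 0.450). Manf, a secreted survival factor held in the endoplasmic reticulum, was at 64.4 to 132 CPM against 93.7 to 249 CPM (−0.62 ± 0.24, edgeR, adjusted p = 0.468). Creld2, a stress-induced isomerase, was at 45.5 to 95.6 CPM against 69.2 to 191 CPM, the highest value again in 24 h replicate 3. Hspa5, the chaperone BiP, was at 974, 753, 1102 and 594 CPM against 817, 932, 1716 and 999 CPM, also with overlap (−0.38 ± 0.20, edgeR, adjusted p = 0.563).

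Stretches upstream of the RefSeq starts of 3 of these genes are shown for the element that they share, the endoplasmic reticulum stress element, where NF-Y and ATF6 bind (capitals, with 5 bases on each side). It was read as CCAAT, 9 bases of any kind and CCACG, on both strands. In Creld2 it is on the opposite strand.
Hspa5, chr2:34772020-34772048, plus strand: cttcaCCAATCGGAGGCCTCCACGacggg
Pdia6, chr12:17266486-17266514, plus strand: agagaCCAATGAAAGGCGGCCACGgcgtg
Creld2, chr15:88819515-88819543, plus strand: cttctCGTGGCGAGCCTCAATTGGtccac
The element was present before 37 of 32851 RefSeq starts (0.113%) and before those of 9 of the 18 matched genes of the list (Calr, Canx, Creld2, Derl3, Dnajc3, Hsp90b1, Hspa5, Pdia6 and Syvn1). It begins 65 bases before the RefSeq start in Hspa5, 98 in Pdia6 and 126 in Creld2. The outermost GENCODE start of Hspa5 lies 120 bases further upstream, so that its element lies downstream of that start; that of Pdia6 lies 44 bases further upstream, and that of Creld2 is the same base. As above, a match describes letters only.

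Heat shock and cytosolic chaperones, which refold protein after heat or exertion, had negative log2 fold changes in all 20 genes (median −0.34). None passed, and 8 genes were lower at an unadjusted p under 0.05, where 4.32% of all tested genes were. Here 24 h replicates 3 and 4 were high. Hspa1b, the inducible HSP70, was at 9.57, 7.46, 13.01 and 9.56 CPM at 2 wk and at 7.60, 7.93, 47.3 and 30.4 CPM at 24 h. The 24 h replicates 1 and 2 thus lay within the range of 2 wk (log2 fold change −1.24 ± 0.45, edgeR, adjusted p = 0.450). Hspa1b has a near-identical copy, Hspa1a, and the labels used here do not say how shared reads were counted. Hsph1, an HSP110 exchange factor, was at 185, 124, 164 and 96.2 CPM against 135, 149, 310 and 196 CPM (−0.47 ± 0.23, adjusted p = 0.520). Ahsa1, an activator of HSP90, was at 88.7 to 150.2 CPM against 124 to 213 CPM, and Cacybp, an HSP90-associated protein, at 36.2 to 50.4 CPM against 41.9 to 71.6 CPM. Without 24 h replicate 3 the list's median was −0.15 and 0 genes were lower at that threshold; without 2 wk replicates 1, 2 and 4 in turn the counts were 15, 1 and 2.

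RNA from the mitochondrial genome made up a larger share of counts at 2 wk. It took 4.01, 3.70, 2.99 and 4.23% of counts at 2 wk and 2.46, 2.71, 2.54 and 2.16% at 24 h. The lowest 2 wk library was above the highest 24 h library. The means were 3.73 ± 0.54% and 2.47 ± 0.228% (SD, n = 4), a difference of 1.27 percentage points (two-sided exact permutation test, p = 0.0286, the smallest that 70 arrangements allow). Sedentary libraries were at 3.91 ± 0.412% and 1 wk libraries at 3.40 ± 0.588%. With any 1 library left out the difference was 1.10 to 1.52 points, and p was 0.0571 without any 1 of the 24 h libraries.

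Of the 13 messenger RNAs of that genome, 7 were tested. The others (mt-Co2, mt-Co3, mt-Atp6, mt-Atp8, mt-Nd3 and mt-Nd4l) had at most 6 counts in a library, and the cause was not tested. The 7 had a median log2 fold change of 0.71 and all were positive, yet none passed. Of the 7, 6 were higher at an unadjusted p under 0.05, where 5.29% of all tested genes were. For 6 the 2 wk libraries all lay above those of 24 h, where 1.7% of all tested genes did. mt-Cytb, the gene of cytochrome b (chromosome M, 14145 to 15288), was at 13600, 10690, 8440 and 12050 CPM at 2 wk and at 6502, 7241, 6841 and 6060 CPM at 24 h. Every 2 wk library was higher (log2 fold change 0.75 ± 0.15, edgeR, adjusted p = 0.154). mt-Nd2, a subunit of complex I, was at 2276 to 2984 CPM against 1377 to 1912 CPM (0.70 ± 0.15, adjusted p = 0.172). For mt-Nd4, another such subunit, 2 wk replicate 3 was at 2929 CPM, inside the 24 h range of 2592 to 2989 CPM, and the other 2 wk libraries were at 4335 to 5938 CPM. mt-Nd1 (0.54 ± 0.12) and mt-Co1 (0.56 ± 0.13) were also without overlap.

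Nuclear genes of the mitochondrion had medians near 0. The 21 nuclear subunits of the respiratory chain and ATP synthase had a median log2 fold change of −0.043 with 0 genes at an unadjusted p under 0.05 in either direction, and the 15 genes of mitochondrial biogenesis and genome maintenance had −0.020 with 0. A p that misses the threshold does not show that these values were equal.

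**Figure D3:**
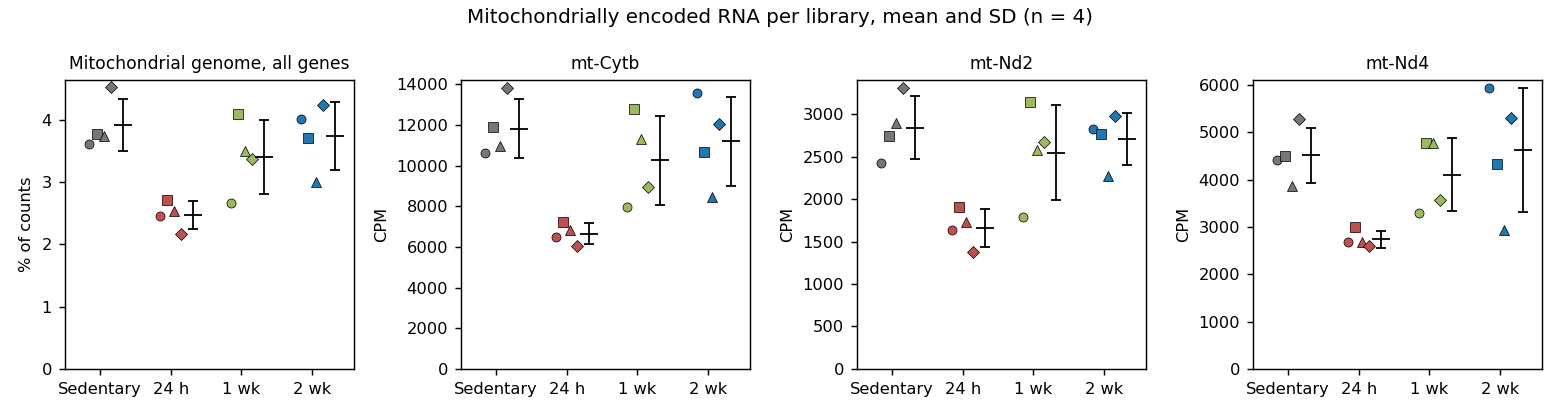
Share of all counts from mitochondrially encoded genes (left, %) and CPM of mt-Cytb, mt-Nd2 and mt-Nd4 (y) in every library of the 4 groups (x), with the mean and SD (n = 4) beside the points. The 24 h libraries lie below the 2 wk libraries in the share, mt-Cytb and mt-Nd2, and 1 library of 2 wk overlaps with them in mt-Nd4.

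Markers of the distal nephron and collecting duct had higher values at 2 wk. None passed after adjustment. Of the 10 genes of the distal convoluted and connecting tubule, 9 had higher fitted values at 2 wk (median log2 fold change 0.29); of 10 principal cell genes all 10 were (0.30), as were all 11 of intercalated cells (0.28). At an unadjusted p under 0.05 there were 5, 5 and 6 genes higher and none lower, against 5.29% of all genes higher. In bulk cortex, more or fewer cells of a type and more or less RNA per cell cannot be told apart. The 10 principal cell markers summed to 607 to 818 CPM at 24 h and 691 to 1110 CPM at 2 wk, with sedentary libraries at 606 to 748 CPM.

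Slc8a1, the sodium-calcium exchanger of the connecting tubule, was at 123, 83.8, 85.6 and 116 CPM at 2 wk and at 71.5, 59.2, 42.3 and 47.9 CPM at 24 h. No library overlapped (log2 fold change 0.89 ± 0.18, edgeR, adjusted p = 0.172; 1.85-fold). Wnk4 and Wnk1, kinases that set sodium chloride transport, were at 119 to 173 CPM against 102 to 125 CPM and at 198 to 242 CPM against 149 to 194 CPM. Slc12a3, the thiazide-sensitive cotransporter that they control, was at 511, 572, 537 and 644 CPM at 2 wk and at 555, 469, 405 and 403 CPM at 24 h. The 24 h replicate 1 lay within the 2 wk range, and the log2 fold change was 0.31 ± 0.14 (edgeR, adjusted p = 0.500). Without 24 h replicate 3, 24 h replicate 4 or 2 wk replicate 4, 2 distal genes in place of 5 were higher at an unadjusted p under 0.05.

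Aqp4, a basolateral water channel of principal cells, was at 18.4, 23.2, 23.9 and 38.2 CPM at 2 wk and at 10.7, 16.6, 7.56 and 18.3 CPM at 24 h. The groups just failed to overlap (log2 fold change 0.97 ± 0.28, edgeR, adjusted p = 0.367; 1.96-fold). Scnn1a and Scnn1b, subunits of the epithelial sodium channel ENaC, were at 118 to 165 CPM against 96.9 to 115 CPM and at 41.9 to 63.2 CPM against 29.3 to 44.3 CPM. Only the first of these pairs was without overlap. Without 2 wk replicate 4, the highest library for Aqp4, the median of the principal cell list was 0.19.

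Intercalated cells secrete acid or base. Insrr, a receptor that senses alkaline pH in base-secreting cells, was at 21.7, 18.3, 14.5 and 22.8 CPM at 2 wk and at 12.1, 13.2, 7.73 and 12.3 CPM at 24 h, with no overlap (log2 fold change 0.77 ± 0.18, edgeR, adjusted p = 0.272). Foxi1, the transcription factor of the lineage, was at 28.0 to 43.4 CPM against 19.9 to 30.0 CPM, and Slc4a9, a bicarbonate carrier, at 29.0 to 39.5 CPM against 15.4 to 26.2 CPM. The latter pair did not overlap. Without 24 h replicate 3 or 2 wk replicate 4, 3 genes of this list in place of 6 were higher at an unadjusted p under 0.05.

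**Figure D4:**
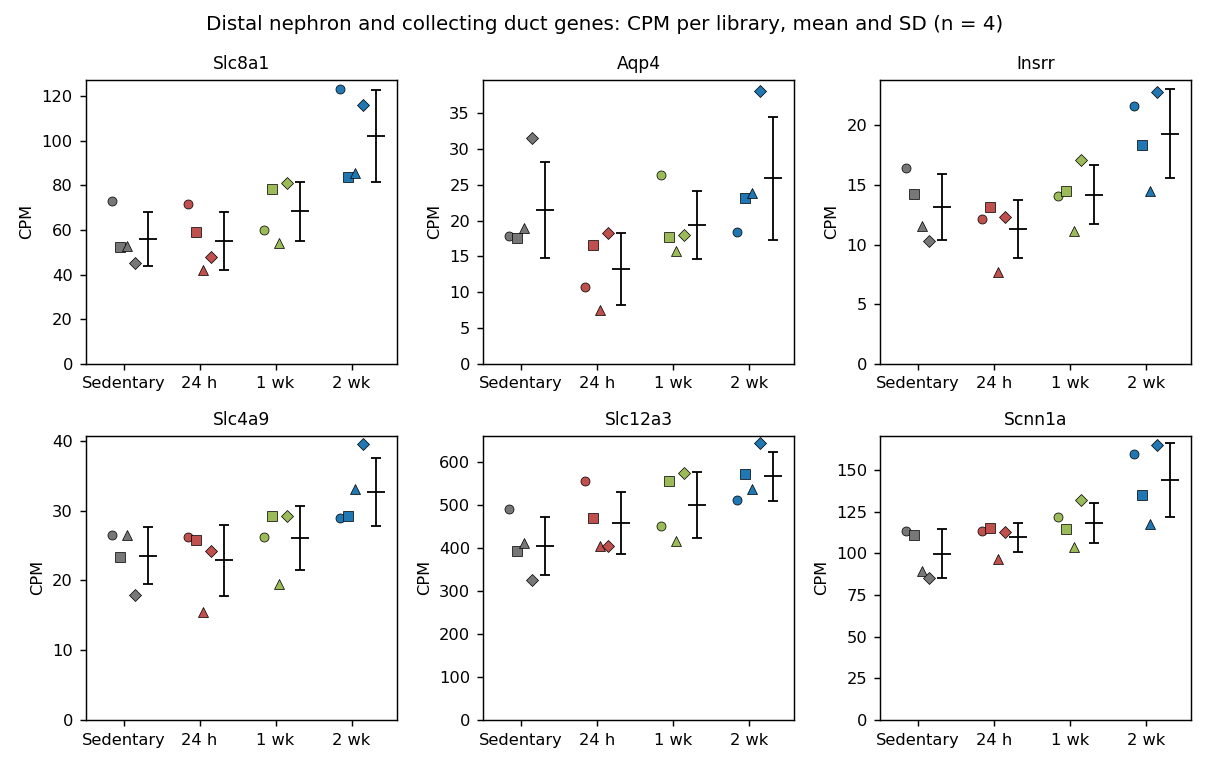
CPM (y) of 6 genes of the distal tubule and collecting duct in every library of the 4 groups (x), with the mean and SD (n = 4) beside the points. All 2 wk libraries lie above all 24 h libraries for Slc8a1, Aqp4, Insrr, Slc4a9 and Scnn1a, and 1 library of 24 h overlaps with them for Slc12a3.

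Among 24 genes of sodium transport and its regulation, some of them also in the lists above, 18 were positive (median log2 fold change 0.15). Of the 24, 9 were higher at an unadjusted p under 0.05, where 5.29% of all tested genes were. That count was 6 without 2 wk replicate 2, 2 wk replicate 4, 24 h replicate 3 or 24 h replicate 4. In the fits without 2 wk replicate 2 or 24 h replicate 4, 1 was lower. The members of smallest p were Scnn1a, Scnn1b and Hsd11b2, the enzyme that keeps glucocorticoids off the mineralocorticoid receptor (169 to 297 CPM against 145 to 193 CPM). Slc9a3, the main sodium-proton exchanger of the proximal tubule, was at 81.3, 97.3, 88.1 and 77.1 CPM at 2 wk and at 74.0, 89.2, 68.3 and 76.4 CPM at 24 h. Its groups overlapped (log2 fold change 0.16 ± 0.15, adjusted p = 0.730). Ren1, renin, varied more between libraries than between groups, at 129, 56.7, 61.3 and 101 CPM against 155, 81.7, 129 and 71.4 CPM (−0.33 ± 0.30, adjusted p = 0.734).

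Of 14 proximal tubule markers 12 had positive log2 fold changes (median 0.19). Of the 14, 5 were higher at an unadjusted p under 0.05, where 5.29% of all tested genes were. Without 2 wk replicate 2, 1 was higher and 1 was lower. Slc13a3, a carrier of dicarboxylates, was at 1142 to 1583 CPM at 2 wk and 834 to 1188 CPM at 24 h. Slc4a4, which returns bicarbonate to the blood, was at 437 to 695 CPM against 362 to 426 CPM, without overlap, and Slc22a8, an organic anion carrier, at 455 to 1015 CPM against 491 to 545 CPM. Markers of the straight segment (10 genes, median 0.059, and −0.027 without 24 h replicate 3), the thick ascending limb (9, −0.078) and podocytes (10, 0.0054) held 1 gene in all at an unadjusted p under 0.05. That gene was Cyp7b1, an oxysterol hydroxylase, at 193, 168, 241 and 237 CPM at 2 wk and at 294, 304, 292 and 310 CPM at 24 h, lower without overlap (−0.51 ± 0.13, adjusted p = 0.298).

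Genes of fatty acid synthesis had mostly higher values at 2 wk, and none passed. Of 12 genes 10 were positive, the median log2 fold change was 0.38 and 6 were higher at an unadjusted p under 0.05, where 5.29% of all genes were. The list's mean log2 CPM, set against the sedentary mean, was 0.397, 0.11, 0.0081 and 0.45 at 2 wk and −0.19 to 0.066 at 24 h, so that 2 wk replicate 3 lay inside the 24 h range. The same mean of the adipocyte markers was 1.75, −0.69, −0.26 and 0.47 at 2 wk and −0.20 to 0.29 at 24 h, highest in 2 wk replicates 1 and 4, which were also the highest for fatty acid synthesis; the part of fat left in the tissue was not tested. Scd2, which puts the double bond into stearate, was at 94.8, 97.2, 86.2 and 111 CPM at 2 wk and at 70.4, 65.4, 69.6 and 57.2 CPM at 24 h. All 2 wk libraries were higher (log2 fold change 0.57 ± 0.10, edgeR, adjusted p = 0.0811; 1.48-fold), and sedentary libraries were at 63.5 ± 3.62 CPM. Srebf1, the transcription factor that drives this pathway, was at 81.7, 104, 80.3 and 81.9 CPM against 51.7, 70.7, 63.0 and 57.0 CPM, again without overlap (0.52 ± 0.13, edgeR, adjusted p = 0.298). Acaca, acetyl-CoA carboxylase, was at 12.4 to 21.9 CPM against 11.4 to 14.5 CPM.

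Of 22 genes of cholesterol synthesis and uptake, 19 had positive log2 fold changes. At an unadjusted p under 0.05, 5 were higher and 1 was lower, where 5.29% and 4.32% of all genes were, and the median was 0.12. Without 2 wk replicate 2 there were 2 higher, and without 24 h replicate 4 there were 2 higher and 2 lower, with a median of 0.055. Insig1, which holds the sterol sensor in the endoplasmic reticulum, was at 49.2 to 63.8 CPM at 2 wk and 36.3 to 45.7 CPM at 24 h, without overlap (0.48 ± 0.14, edgeR, adjusted p = 0.373). Nsdhl, a late enzyme of the pathway, was at 65.7 to 77.8 CPM against 58.0 to 67 CPM.

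Most genes of immune cells had lower values at 2 wk, and none passed. Igha, the heavy chain of IgA, was at 2.28, 2.82, 2.41 and 1.47 CPM at 2 wk and at 10.8, 6.22, 7.19 and 11.3 CPM at 24 h. The groups were well separated, and the gene just missed the threshold (log2 fold change −1.98 ± 0.33, edgeR, adjusted p = 0.0524; 0.254-fold). Jchain, which joins IgA into dimers, was at 0.364, 0.504, 0.359 and 0.469 CPM against 8.03, 1.29, 1.69 and 1.55 CPM (−2.88 ± 0.61, adjusted p = 0.192). Igkc, the kappa light chain, was at 3.11 to 4.46 CPM against 6.47 to 40.5 CPM. The highest value of both was in 24 h replicate 1, which also had the highest mean of the T and natural killer cell genes. Immunoglobulin genes rearrange and share sequence, so their counts are uncertain.

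The 10 genes of B and plasma cells had a median log2 fold change of −0.54, with 4 lower at an unadjusted p under 0.05. Of 11 tested macrophage genes 10 were negative (median −0.60) and 8 were lower at that threshold, where 4.32% of all tested genes were, and all 10 genes of MHC class II presentation were negative (−0.53), 6 of them lower. Cd68, a lysosomal protein of macrophages, was at 2.50, 2.46, 2.16 and 2.80 CPM at 2 wk and at 3.66, 3.22, 5.19 and 3.59 CPM at 24 h, without overlap (−0.66 ± 0.18, edgeR, adjusted p = 0.339). C1qb, a complement subunit made by tissue macrophages, was at 14.1 to 15.8 CPM against 16.1 to 33.3 CPM. Adgre1, the marker F4/80, was at 2.45, 2.12, 3.17 and 2.37 CPM against 5.12, 2.73, 6.21 and 2.39 CPM. Here 24 h replicates 2 and 4 lay within the 2 wk range (−0.71 ± 0.26, adjusted p = 0.440). Without 24 h replicate 3 the macrophage median was −0.39 with 3 genes lower, and without 24 h replicate 1 there were 5.

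H2-Eb1 and H2-Ab1, chains of the molecules that present antigen to helper T cells, were at 76.5 to 85.3 CPM against 91.2 to 159 CPM and at 105 to 118 CPM against 119 to 177 CPM, both without overlap. Ctss, the protease that readies those molecules, was at 6.49 to 7.89 CPM against 7.02 to 21.9 CPM. A pair of dendritic cell and macrophage lectins were among the genes of smallest p. Mgl2 was at 2.11, 1.97, 2.13 and 2.30 CPM against 3.70, 3.40, 2.95 and 3.66 CPM, and Cd209a at 0.460, 0.800, 0.465 and 0.896 CPM against 1.98, 1.31, 1.72 and 1.48 CPM. Neither overlapped (adjusted p = 0.154 for each, edgeR), and in each of them the sedentary mean was closer to 24 h than to 2 wk, at 3.19 ± 0.167 and 1.70 ± 0.344 CPM. Rftn1, a lipid raft protein of lymphocytes and other cells, was at 2.18 to 3.26 CPM against 3.64 to 5.61 CPM.

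Markers of T and natural killer cells were scarce, and those named here were under 2 CPM in every library. All 9 tested were negative (median −0.49), and 2 were lower at an unadjusted p under 0.05, where 4.32% of all tested genes were. Without 24 h replicate 1 the median was −0.14, with 4 of 10 tested genes positive and 0 lower at that threshold. Without 24 h replicate 3 or 24 h replicate 4 there were 4 lower. Nkg7, a granule protein, was at 0.291 to 0.385 CPM against 0.471 to 1.07 CPM, and Lck, the T cell receptor kinase, at 0.533 to 1.11 CPM against 0.839 to 1.89 CPM. Cd3e, which carries the signal of the T cell receptor, was at 0.242, 0.371, 0.338 and 0.448 CPM against 0.7098, 0.347, 0.239 and 0.559 CPM, with full overlap (−0.41 ± 0.33, adjusted p = 0.697).

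Inflammatory signals had mostly negative log2 fold changes as well. Chemokines, cytokines and adhesion molecules were negative in 15 of 16 tested (median −0.26, 5 lower at an unadjusted p under 0.05 and 2 without 24 h replicate 3). Of all tested genes, 4.32% were lower at that threshold. Tgfb1, a profibrotic cytokine, was at 10.3 to 13.9 CPM against 13.9 to 17.3 CPM, Il1b at 0.512 to 0.782 CPM against 0.694 to 1.89 CPM, and the monocyte chemokine receptor Ccr2 at 1.33 to 1.75 CPM against 1.71 to 3.47 CPM. The 13 complement genes had a median of −0.29 with 4 lower, and −0.11 with 2 lower without 24 h replicate 3; C5ar1, the receptor for C5a, was at 0.256 to 0.667 CPM against 0.669 to 1.80 CPM. The 24 interferon genes had a median of −0.30 with 4 lower, and −0.12 with 1 lower without that library; without 24 h replicate 2 each of these lists had 7 lower, and without 2 wk replicate 1 the interferon list had 2. The antiviral genes Oas1a (0.896 to 1.48 CPM against 1.34 to 2.65 CPM) and Bst2 (10.01 to 12.1 against 11.1 to 19.9 CPM) overlapped between groups, and Irf7 (8.26 to 8.66 against 9.69 to 11.4 CPM) did not.

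Most fibroblast genes had lower values at 2 wk, matrix genes were mixed, and none of either list passed. Of 11 fibroblast genes 10 were negative (median −0.41) and 6 were lower at an unadjusted p under 0.05, or 3 without 24 h replicate 3. Col1a2, a chain of type I collagen, was at 36.4, 33.3, 24.8 and 35.0 CPM at 2 wk and at 51.7, 34.7, 57.8 and 44.3 CPM at 24 h. Only 24 h replicate 2 fell inside the 2 wk range (−0.54 ± 0.15, edgeR, adjusted p = 0.335). Col3a1 was at 17.4 to 20.5 CPM against 20.5 to 50.3 CPM and Col1a1 at 12.5 to 22.6 CPM against 19.0 to 32.1 CPM. The 22 collagen and basement membrane genes had a median of −0.16 with 7 lower and 1 higher at an unadjusted p under 0.05, where 4.32% and 5.29% of all genes were, and 8 of them were positive. There were 4 lower without 2 wk replicate 1, 2 wk replicate 3 (then 3 higher, median −0.093) or 24 h replicate 1, and 5 without 24 h replicate 3. Sparc, a collagen-binding protein, was at 99.6 to 114 CPM against 113 to 209 CPM.

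Tubular injury genes were negative in 13 of 16 (median −0.40). Of the 16, 7 were lower at an unadjusted p under 0.05, where 4.32% of all tested genes were. That count was 3 without 24 h replicate 3, 24 h replicate 4 or 2 wk replicate 2. Havcr1, the proximal tubule injury marker KIM-1, was at 3.32, 1.42, 5.45 and 4.31 CPM at 2 wk and at 6.13, 3.42, 6.97 and 25.9 CPM at 24 h. The log2 fold change was −1.56 ± 0.65 (edgeR, adjusted p = 0.491), and −0.62 without 24 h replicate 4, the highest library. Lcn2, the injury marker NGAL, was at 1.55, 0.949, 2.22 and 2.48 CPM against 2.95, 1.93, 4.67 and 6.60 CPM (−1.18 ± 0.41, adjusted p = 0.415). Tnfrsf12a, the receptor of the cytokine TWEAK, was at 14.3 to 23.4 CPM against 18.7 to 37.7 CPM, and Vcam1, an adhesion molecule of injured tubules, at 5.47 to 6.42 CPM against 5.18 to 10.6 CPM.

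**Figure D5:**
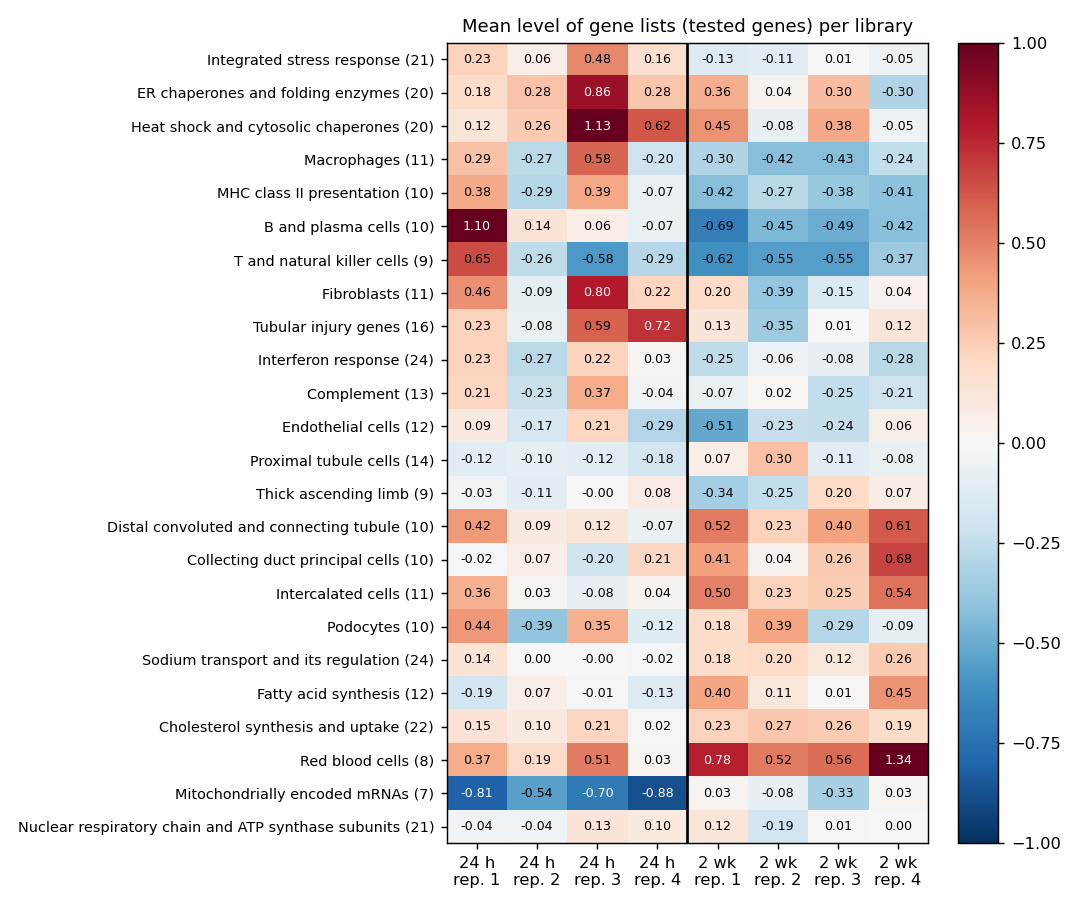
Mean log2 CPM of the tested genes of 24 lists chosen after their values were seen (rows, number of genes in brackets) in each of the 8 libraries (columns), minus the mean of the sedentary libraries; red is above and blue below the sedentary mean, and the black line parts 24 h from 2 wk. The chaperone lists peak in 24 h replicate 3 (0.86 and 1.13), B and plasma cell genes in 24 h replicate 1 (1.10), and mitochondrially encoded genes are at −0.54 to −0.88 in the libraries of 24 h.

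Among the remaining genes of smallest p, several act in hormone and nutrient handling. Cyp27b1, which activates vitamin D, was at 3.39, 5.96, 6.38 and 4.59 CPM at 2 wk and at 13.7, 9.94, 14.2 and 6.97 CPM at 24 h. The groups did not overlap (log2 fold change −1.13 ± 0.24, edgeR, adjusted p = 0.172), and the 1 wk libraries were at 10.6 ± 3.03 CPM, close to 24 h. Slc19a3, a thiamine carrier, was at 16.2 to 20.1 CPM against 11.3 to 13.9 CPM (adjusted p = 0.154). Slc2a9, a urate carrier, was at 16.9 to 23.1 CPM against 10.8 to 16.4 CPM (adjusted p = 0.243). P3h2, a collagen prolyl hydroxylase, was at 91.0 to 131 CPM against 76.5 to 89.0 CPM, and Ipcef1 at 7.60 to 8.94 CPM against 5.503 to 6.65 CPM. None of these 4 overlapped between groups.

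Most red blood cell genes had higher values at 2 wk, and none passed. Of 8 genes 7 had positive log2 fold changes, and the median of the 8 was 0.75. Of the 8, 3 were higher at an unadjusted p under 0.05 (5 without 24 h replicate 3), where 5.29% of all tested genes were. Alas2, the red cell enzyme of haem synthesis, was at 20.2, 16.1, 14.3 and 32.7 CPM at 2 wk and at 11.8, 8.40, 12.8 and 8.24 CPM at 24 h. The highest was 2 wk replicate 4, and without it the median was 0.41 with 1 gene at that threshold. The globin genes Hba-a1 (131 to 314 CPM against 84.5 to 119 CPM) and Hba-a2 (90.7 to 215 CPM against 56.0 to 81.8 CPM) are near-identical copies, so reads may be split between them. The part of blood left in the tissue was not tested.

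The other lists held no gene that passed, and many of their counts at an unadjusted p under 0.05 (5.29% of all genes higher, 4.32% lower) rested on single libraries. Insulin and growth factor signalling (21 genes) had a median log2 fold change of 0.12 with 4 higher and 1 lower at that threshold (2 higher without 2 wk replicate 2, 24 h replicate 3 or 24 h replicate 4, and 6 without 2 wk replicate 3), among them Irs1 (6.13 to 8.53 CPM against 4.37 to 6.02 CPM), the epidermal growth factor receptor Egfr (56.0 to 63.1 against 41.7 to 55.6 CPM) and the insulin receptor Insr (41.5 to 64.4 against 32.5 to 46.5 CPM). Organic ion, drug and amino acid carriers (21, median 0.15) had 5 higher, but 1 higher and a median of 0.074 without 2 wk replicate 2, 2 higher and 1 lower (0.087) without 24 h replicate 3, and 3 higher without 2 wk replicates 3 or 4 or 24 h replicates 1 or 4, each left out alone. Abcc4, a urate and drug exporter, was at 24.4 to 48.2 CPM against 21.2 to 27.0 CPM. Endothelin, prostaglandin, nitric oxide and natriuretic signalling (20, 0.016, and 0.14 without 24 h replicate 1) had 3 higher (2 without 24 h replicates 1 or 3), the nitric oxide synthase Nos1 of the macula densa (0.465 to 1.39 against 0.326 to 0.839 CPM), the cyclic GMP phosphodiesterase Pde5a (3.14 to 4.64 against 1.85 to 3.77 CPM) and the prostaglandin E2 receptor Ptger1 (8.55 to 12.8 against 6.44 to 9.55 CPM). Water channels and osmolyte handling (16, 0.063) had 3 higher and 1 lower (4 of each without 2 wk replicate 3), with the osmotic stress factor Nfat5 at 14.7 to 24.1 CPM against 11.4 to 14.9 CPM. Gluconeogenesis and ammonia production (15, 0.098) had 1 higher (0 to 3 with single libraries left out), the glutamine carrier Slc38a3, at 101, 62.6, 94.5 and 123 CPM against 36.3, 93.8, 38.1 and 77.3 CPM.

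Fatty acid oxidation (24 genes, median −0.028) had 4 lower, where 4.32% of all genes were. Leaving out 24 h replicate 3 gave 0 lower, 1 higher and a median of 0.12, and without 2 wk replicates 1, 2, 3 or 4 or 24 h replicate 2 there were 2 lower. The medium-chain dehydrogenase Acadm was at 925 to 1210 CPM against 1165 to 1351 CPM. The circadian clock (18, 0.053) had 1 higher (0 without 24 h replicates 1 or 3). Per1, a clock gene that glucocorticoids also induce, was at 16.2, 16.6, 14.5 and 37.8 CPM against 19.6, 12.2, 16.9 and 13.98 CPM, and Arntl, its activator, at 3.85, 5.23, 4.33 and 5.61 CPM against 3.38, 2.23, 6.73 and 6.04 CPM, both with overlap (adjusted p = 0.609 and 0.959). The log2 fold change of Arntl, 0.050, turned negative without 2 wk replicate 2, 2 wk replicate 4, 24 h replicate 1 or 24 h replicate 2. Immediate early genes (23, −0.095) had 2 lower (1, with a median of 0.014, without 24 h replicate 3, and 4 without 2 wk replicate 1), Nr4a3 (0.0423 to 0.163 CPM against 0.206 to 0.559 CPM) and Atf3 (0.789 to 1.46 against 1.09 to 4.35 CPM). Acute phase genes (8, −0.26) had 3 lower and 1 higher, but 0 lower without 2 wk replicate 3 and 1 lower without 24 h replicate 1. The cytokine brake Socs3 was at 1.18 to 2.03 CPM against 2.11 to 3.26 CPM and the fibrinogen chain Fgb at 0.661 to 1.96 CPM against 0.868 to 4.60 CPM.

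Endothelial markers (12, −0.19) had 1 lower, Emcn. The count was 0 without 2 wk replicates 1 or 2 or 24 h replicates 1 or 3 (median −0.11 without the last), 6 without 2 wk replicate 4 (−0.30), 4 without 24 h replicate 4 (−0.28), 3 without 2 wk replicate 3 and 2 without 24 h replicate 2. Glucocorticoid targets (14, −0.074) had 3 lower and 1 higher, and 2 lower, 0 higher and a median of 0.093 without 24 h replicate 3; without 2 wk replicate 2 or 24 h replicate 4 there was 1 lower. The glutathione and NRF2 list (22, −0.0053) had 1 lower and 2 higher, hypoxia targets (17, −0.034, and 0.072 without 24 h replicate 1) 2 lower, cell division (23, −0.13, and 0.049 without 24 h replicate 4) 2 lower and 1 higher, the lysosome and autophagy (20, −0.059) 1 of each, glycolysis (15, −0.066) 1 lower, phospholipid synthesis (17, 0.047) 1 higher, the renin-angiotensin system (11, 0.092) 1 higher, and smooth muscle and mesangial cells (10, −0.13) 1 higher. Over the fits without 1 library, none of these 8 lists had more than 3 genes in either direction. The proteasome (20, −0.092) had none. Ribosomal proteins were negative in 79 of 81 by small amounts (median −0.11, 1 lower). That median was −0.033 without 2 wk replicate 2 and −0.052 without 24 h replicate 3. Their mean log2 CPM, set against the sedentary mean, overlapped between groups, at −0.30 to 0.13 at 2 wk and −0.075 to 0.22 at 24 h. The lists of few tested genes or of neighbouring tissue were as follows. Adipocyte genes (5 tested) had a median of −0.064, and 0.21 without 24 h replicate 3. They ranged from −0.44 to 4.27, with 1 lower and 1 higher at an unadjusted p under 0.05. Of all tested genes, 4.32% were lower and 5.29% higher at that threshold. Cidec was at 2.18 CPM in 2 wk replicate 1 and 0.237 to 0.739 CPM in the others. Urothelium (7) had a median of −1.09 with 0 lower, and −0.13 without 24 h replicate 3. Medians were 0.34 for neutrophils (3 tested), 0.10 for skeletal muscle (3) and 0.42 for adrenal cortex (1).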

How the data were processed

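Polyadenylated RNA of kidney cortex was made into strand-marked libraries, per the labels' protocols. The authors' deposited table gives unnormalized counts of reads for every gene, made with HTSeq 0.10.0 on GRCm38 after FastQC 0.10.1, per the submitters' processing notes; the labels used here name no aligner, annotation release or strand setting. Columns were joined to samples by name, and 8 further columns, which match no sample, were left out. Symbols and positions are from GENCODE M21 (94.1% of IDs, 99.4% of counts); promoters are from RefSeq, GRCm38.p6.

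Genes were filtered with filterByExpr, scaled by TMM and tested with edgeR 4.0.16 (robust quasi-likelihood F-test, all 16 libraries in 1 fit, Benjamini-Hochberg adjustment over 16126 genes). CPM are TMM-scaled. DESeq2 1.42.0, voom in limma 3.58.1, other scalings and filters, a replicate block and leaving out each library were run as alternatives. The steps were tested on simulated data. Libraries of a group differed beyond sampling noise (chi-square per degree of freedom 23.4 to 108). The members, the 54 gene lists and the rule for named genes were chosen with earlier results of these data known, and some lists share members. By that rule, where fewer than 10 genes passed, every passing gene and those of smallest p (mean log2 CPM of at least 0, no clone names) up to 24, the 3 of smallest p of each list and a fixed set (Hspa1b, Hsph1, Hspa5, mt-Cytb, Ren1, Slc9a3, Slc12a3, Lcn2, Havcr1, Cd3e, Adgre1, Arntl, Per1, Ddx3y, Xist) were named; others were chosen after their values were seen. A few genes that the rule names are not reported here.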

Additional observations from a re-analysis of the deposited data

Results flagged for a closer look

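A library that lay far from the other 3 of its group was looked for in each tested gene described above and a few further genes, Gdf15 and Ms4a7 among them. It was also looked for in each list of at least 5 tested genes, the mitochondrial share and the total counts. Of 316 groups of 4 examined, 17 held one. Chance gives about 1 in 20, which is near that share, and the groups are not independent, as lists and genes overlap.

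At 24 h, replicate 3 was high for Creld2 (191 CPM, the others 69.2 to 87.2), C5ar1 (1.80 CPM, the others 0.669 to 0.841) and the mean log2 CPM of the endoplasmic reticulum chaperones (0.86 above the sedentary mean, the others 0.18 to 0.285), and low for Scnn1a (96.9 CPM, the others 113 to 115). Replicate 1 was high for Jchain (8.03 CPM, the others 1.29 to 1.69) and for the mean of the sodium transport genes (0.14, the others −0.019 to 0.0035). Replicate 4 was high for Havcr1 (25.9 CPM, the others 3.42 to 6.97), and replicate 2 was low for the mean of chemokines, cytokines and adhesion molecules (−0.11, the others 0.19 to 0.225).

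At 2 wk, replicate 3 was high for Gdf15, a stress-induced hormone (10.5 CPM, the others 7.29 to 7.57), and low for Slc2a9 (16.9 CPM, the others 22.1 to 23.1) and Nr4a3 (0.0423 CPM, the others 0.145 to 0.163). Replicate 4 was high for Per1 (37.8 CPM, the others 14.5 to 16.6) and low for Ms4a7, a macrophage membrane protein (0.683 CPM, the others 0.934 to 0.969), Il1b (0.512 CPM, the others 0.741 to 0.782) and the mean of chemokines, cytokines and adhesion molecules (−0.28, the others −0.165 to −0.14). Replicate 2 was high for Srebf1 (104 CPM, the others 80.3 to 81.9) and in total counts (66900000 when rounded, the others 43600000 to 46200000). As the flags were about as many as chance gives, a flag alone does not show that a library differed. Causes were not tested.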

How the results depend on the processing

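The number of genes with adjusted p under 0.05, 2 with edgeR as run here, was 39 with DESeq2, 4 with scaling by library totals alone, 4 with a filter of at least 1 CPM in 4 libraries and 8 with no filter beyond 1 count; Asns and Atf5 were among the calls of each. It was 2 with DESeq2's size factors, 3 with voom and 2 in the fit on the 8 libraries. Leaving out 1 library gave 0 to 7 calls: 0 without 2 wk replicate 2 (1076 genes at an unadjusted p under 0.05), 1 without 2 wk replicate 4, 24 h replicate 1 or 24 h replicate 4, 6 without 2 wk replicate 3 and 7 without 24 h replicate 2. Asns was at −1.40 to −1.25 and Atf5 at −0.69 to −0.58 in those fits. Atf5 was not called in the fit on the 8 libraries (−0.64, adjusted p = 0.107). The difference in mitochondrial share was 1.10 to 1.52 percentage points, with p of 0.0286 or 0.0571 over 35 arrangements, and 1.27 with tested genes as the denominator. The causes were not tested.

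The labels do not say whether replicate numbers pair the libraries. The correlations of same-numbered deviations were −0.0676, 0.0517, 0.166 and −0.017, and 1 of 4 libraries of 2 wk matched its own number best. So few values cannot decide whether the libraries are paired. With a replicate block on all 16 libraries 11 genes were called, 8 higher and 3 lower. With the block on the 8 libraries 2 were called, and Atf5 was at −0.64 (adjusted p = 0.0618). Precision is limited by 4 libraries a group. Of the lists, the B and plasma cell median was −1.90 with the filter of 1 CPM and −1.09 in the fit on the 8 libraries, as fewer of its genes were tested. Of the genes described, only Arntl and Ddx3y changed sign, each only when a library was left out (−0.17 to 0.29 and −0.099 to 0.19).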
